A study of Drosophila melanogaster with 48 samples.

Results

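The comparison described here is that of brains of flies labelled Tau-KO and female, taken 1 hr after a head injury, with brains of uninjured control flies of the same strain and sex. Its members are the 6 libraries that carry these labels, 3 control and 3 at 1 hr, out of 48 libraries in the series, and all genes of the count table. The series holds the strains w1118 and Tau-KO, both sexes, and a control and 1, 2 and 4 hr after injury. The methods describe the procedure for w1118, in adult mated flies 10 to 14 days old. They were struck once in a HIT device, a spring-held vial that hits a pad and causes a mild closed head injury. Brains were dissected at the stated time and kept in medium under near-infrared (NIR) light for 2 hr, and RNA of single brains was collected right after. Control brains received the same light, so both groups of the comparison share the exposure, and 1 hr is the time of dissection and not of RNA collection. How the Tau-KO allele was made is not given in the sources used here. Each library came from 15 ng of RNA and holds reads from the 3′ ends of polyadenylated transcripts (QuantSeq), so that counts follow molecules rather than gene length.

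Tau is a protein that binds and stabilises microtubules in axons, and flies carry a single tau gene. In mammals its phosphorylated and aggregated forms accumulate after brain injury, which makes a strain without it a model for the part tau plays in the response. In the fly, early reactions to head injury are known to include the release of antimicrobial peptides, stress proteins and the glial clearing of damaged axons. The fly brain also holds neurosecretory cells, among them the insulin-producing cells, whose peptides set growth and feeding.

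The label of the strain could not be checked with the tau RNA. Tau was at 124, 265 and 144 normalized CPM (gene counts scaled to a common library depth by the TMM method) in control replicates 1, 2 and 3 and at 186, 117 and 160 CPM at 1 hr. Over all libraries its median was 143 CPM (range 87.3 to 236, n = 24) in Tau-KO and 150 CPM (range 64.0 to 196, n = 24) in w1118. The RNA was therefore present under both labels, and a 3′ read outside a deleted segment would not show a deletion. The sex label was not borne out by its RNAs. RoX1 is an RNA that males use to raise the output of their X chromosome. Its median was 906 CPM (range 54.9 to 1225) in libraries labelled female and 978 CPM (733 to 1548) in those labelled male. The 6 libraries were at 751 to 1225 CPM, within the range of the male label. Yp1, a yolk protein of females, had medians of 1928 CPM (412.5 to 13930) and 1538 CPM (326.5 to 2322). Only w1118 female 2 hr replicate 2 was low in roX1 (54.9 CPM), and it held the 13930 CPM of Yp1. Tau-KO, female and male thus name labels throughout. The neuronal marker elav was at 178 to 522 CPM in the 6 libraries, and nSyb, Syt1 and brp were at 279 to 772 CPM. Repo, the defining factor of glia, was at 1.68 to 30.3 CPM, and alrm, another glial marker, at 7.05 to 47.8 CPM. The glial markers Gs2, nrv2 and Eaat1 were at 850 to 1827, 319 to 525 and 137 to 307 CPM. None of the 28 gonad and accessory gland genes reached the count filter, whereas muscle and gut genes were present, with sums given below.

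Of the 6 libraries, 2 stood furthest from the rest. Counts in genes were 330161, 292534 and 763602 in control replicates 1 to 3 and 350764, 1528927 and 489708 at 1 hr. Control replicate 2 and 1 hr replicate 2 differed from their nearest neighbour among all 48 libraries by a chi-square per degree of freedom of 4.36 and 9.42, while the other four were at 1.39 to 2.30. Compared in pairs, these 2 libraries differed from each of the other four by 11.5 to 37.3 and from each other by 52.4, and the other four differed among themselves by 1.42 to 5.65, a measure that also grows with depth. None of the 6 libraries was nearest to one of its own group. Control replicate 1 and 1 hr replicate 1 were nearest to each other (1.42). Control replicate 3 was nearest to w1118 male 4 hr replicate 3 (2.30), and 1 hr replicate 3 to w1118 male 2 hr replicate 3 (1.39). Control replicate 2 had the fewest detected genes (5475 against 7136 to 7821 in the others). The non-coding RNA gene MRE16 took 0.50% of its counts, against 21.6% in 1 hr replicate 2 and 2.79 to 5.25% in the other four. The fold changes of called genes are therefore also given without these 2 libraries, a choice made after the data were seen.

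No gene passed an adjusted p under 0.05 at 1 hr. The RNAs of the Polycomb cofactor Pcl, the inositol polyphosphate phosphatase Mipp1, the cortex glia exchanger zyd and the neuropeptide Dsk were higher at an unadjusted p, and those of kek5, the insulin receptor InR, the dopamine transporter DAT and the protease ste24a were lower. Among 5015 genes tested by edgeR's quasi-likelihood test, 206 (4.11%) had an unadjusted p under 0.05 with a log2 fold change beyond 1 in either direction, the rule of the figures of the study, and they are named as called. Of these, 104 (2.07%) were higher and 102 (2.03%) were lower. Of the genes named above, only zyd, kek5 and ste24a were still called without the 2 libraries that stood apart. There the log2 fold changes were −0.18 for InR, −0.51 for DAT and 0.94 for Dsk. Without the limit on the fold change, 286 genes (5.7%) had an unadjusted p under 0.05, and the smallest adjusted p was 0.789. An exact permutation test of 3 against 3 libraries cannot go below p = 0.10 for a single gene, so a call rests on the spread that edgeR shares over the 24 Tau-KO libraries. DESeq2 called 236 genes at the unadjusted rule and also none at the adjusted rule. The median log2 fold change over all genes tested was 0.03, with 52.5% of genes above 0, and replicates varied with a biological coefficient of variation of 0.39.

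**Figure D1:**
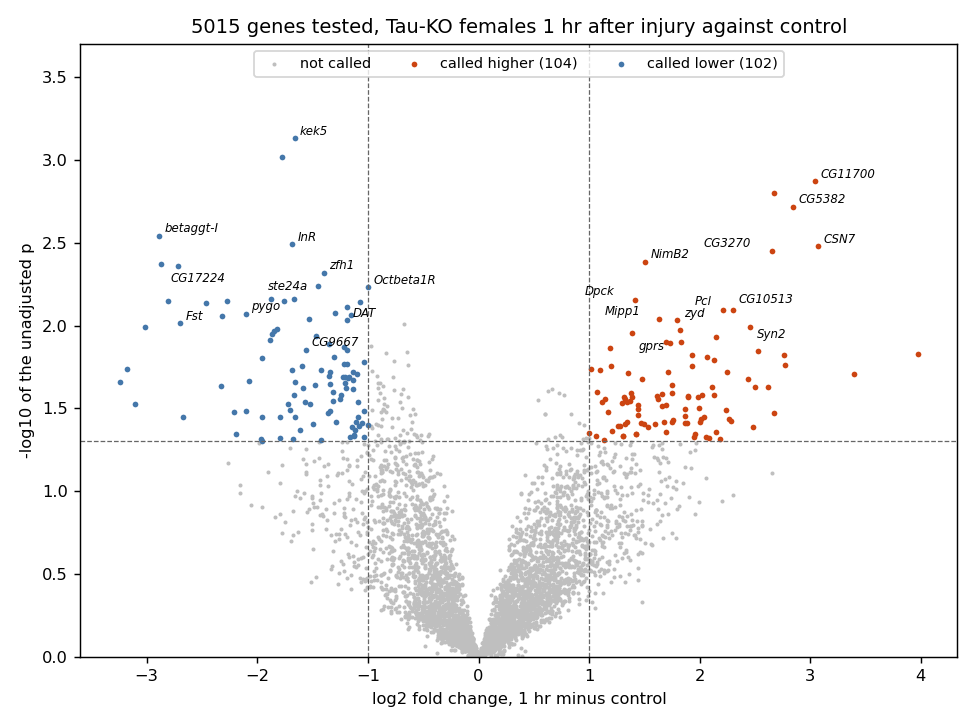
Each point is 1 of the 5015 genes tested, with the log2 fold change of Tau-KO females at 1 hr against control on the x axis and the −log10 of the unadjusted p on the y axis; dashed lines mark the limits of the call and labels name most of the genes chosen by the smallest p. There are 104 genes called higher and 102 called lower, kek5 has the smallest p, and no gene passed the adjusted rule.

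The 2 libraries that stood apart held the extremes of nearly all called genes. Among the 104 genes called higher, 1 hr replicate 2 was the highest library for 92 (88.5%) and control replicate 2 the lowest for 82 (78.8%). Among the 102 called lower, control replicate 2 was the highest for 100 (98%) and 1 hr replicate 2 the lowest for 70 (68.6%). Over all genes tested, 1 hr replicate 2 was the highest for 31.1% and control replicate 2 for 29.2%, and control replicate 2 was the lowest for 39.2% and 1 hr replicate 2 for 27%. Genes called higher were weakly expressed, with a median of 26.2 CPM over the 6 libraries, against 68.1 CPM for those called lower and 47.8 CPM for all genes tested.

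The number of calls moved with single libraries. It fell to 38 when control replicate 2 was left out and to 56 when 1 hr replicate 2 was, and to 15 when neither was used (7 higher and 8 lower), of which 5 were among the 206. It was 302, 491, 365 and 311 without control replicate 1, control replicate 3, 1 hr replicate 1 and 1 hr replicate 3. Only 5 of the 206 genes were called with each library left out in turn: Pcl, Mipp1 and Syn2 higher, and CG17224 and ste24a lower.

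**Figure D2:**
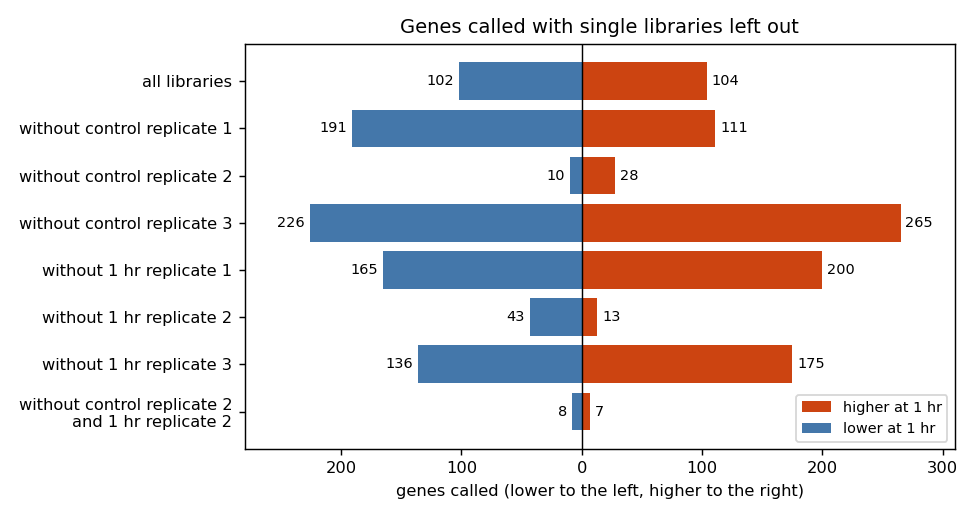
Bars give the number of genes called higher (right, red) and lower (left, blue) in Tau-KO females at 1 hr with all libraries and with the named libraries left out. The count of 206 drops to 38 and 56 when replicate 2 of the control or of the 1 hr group is left out and to 15 when both are.

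Separation of the groups was counted as a description, with no test. The 3 libraries at 1 hr lay all above or all below the 3 controls in 371 genes (7.4%), with 211 above (4.21%) and 160 below (3.19%). In 84 genes (1.67%) the libraries were separate and the gene was called, 53 higher (1.06%) and 31 lower (0.618%). The 12 genes of smallest p in each direction among these 84 are described next, apart from some with no known role.

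Among the genes that rose by the unadjusted rule, Pcl, a partner of the Polycomb complex that methylates histone H3, was at 5.76, 3.53 and 9.26 CPM in the controls and at 27.3, 44.4 and 22.2 CPM at 1 hr. Every injured library was above every control, and the highest was 1 hr replicate 2. The log2 fold change was 2.21 (SE 0.77, adjusted p = 0.789), and 1.63 without the 2 libraries, where it was not called. These values rest on few reads, 1 to 7 in a control and 10 to 53 in an injured library. In the BDGP6 annotation Pcl lies on chromosome 2R, from 18135426 to 18139990 on the plus strand.

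Mipp1, an enzyme that removes phosphates from inositol polyphosphates, was at 25.9, 10.6 and 15.9 CPM in the controls and at 54.6, 63.7 and 44.5 CPM at 1 hr. Here the injured libraries lay close together (mean 54.3 ± 9.63 SD) and clear of the controls (mean 17.5 ± 7.79 SD). Its log2 fold change of 1.63 (SE 0.58) was 1.29 without the 2 libraries and then not called. Syn2, a member of the syntrophin family of dystrophin-associated proteins, was at 0, 0 and 10.6 CPM in the controls and at 24.6, 36.9 and 18.2 CPM at 1 hr, with 8 control reads in all, and its log2 fold change of 2.45 was 1.71 without the 2 libraries and then not called. Both genes were called with any single library left out, as was Pcl.

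Zyd encodes an exchanger that lowers calcium in cortex glia, the glia that wrap neuronal cell bodies, and its loss makes flies prone to seizures. It was at 17.3, 7.05 and 5.29 CPM in the controls and at 46.4, 35.2 and 18.2 CPM at 1 hr. The highest value was that of replicate 1, and the groups were separate by a narrow margin. Its log2 fold change was 1.79 (SE 0.64) with all libraries and 1.62 without the 2, called in both, and the call was lost without control replicate 3.

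CSN7, a subunit of the COP9 signalosome that controls cullin ubiquitin ligases, was at 0, 3.53 and 5.29 CPM in the controls and at 19.1, 56.2 and 10.1 CPM at 1 hr (log2 fold change 3.07, SE 0.95). NimB2, a secreted protein of the Nimrod family, was at 57.6, 10.6 and 84.6 CPM and at 92.9, 242 and 119 CPM. Dpck, an enzyme of the last step of coenzyme A synthesis, was at 11.52, 17.6 and 41.0 CPM and at 46.4, 102 and 48.5 CPM. In all 3 genes the injured libraries lay above the controls and 1 hr replicate 2 was the highest. None of them was called without 1 hr replicate 2. Without the 2 libraries the log2 fold changes were 2.06 for CSN7, 0.56 for NimB2 and 0.76 for Dpck, none of them called.

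Kek5, a transmembrane protein with leucine-rich repeats that modulates BMP signalling, had the smallest p of all genes. It was at 101, 212 and 48.9 CPM in the controls and at 35.5, 40.2 and 34.4 CPM at 1 hr. The injured libraries were nearly equal (mean 36.7 ± 3.12 SD), while the controls were widely spread (mean 120 ± 83.1 SD), with the highest in replicate 2. The log2 fold change was −1.66 (SE 0.43, adjusted p = 0.789). It was −1.06 without the 2 libraries and still called, whereas without control replicate 2 alone the call was lost. The gene lies on chromosome X of BDGP6, from 19353181 to 19471914 on the plus strand.

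Ste24a belongs to a family of membrane proteases that trim prenylated proteins. It was at 34.6, 59.95 and 30.4 CPM in the controls and at 8.19, 17.6 and 10.1 CPM at 1 hr, so the groups were clearly separate. The log2 fold change was −1.67 (SE 0.57) and −1.78 without the 2 libraries. Betaggt-I, the beta subunit of the enzyme that attaches the geranylgeranyl lipid to proteins, was at 17.3, 113 and 19.8 CPM in the controls and at 5.46, 8.38 and 4.04 CPM at 1 hr. Its call was lost without control replicate 2, where the value was −1.55 on the log2 scale, and it was −1.94 and not called without the 2 libraries. CG17224, without a role in the sources used here, was at 23.0, 28.2 and 26.4 CPM in the controls and at 5.46, 0 and 8.09 CPM at 1 hr (log2 fold change −2.72, SE 0.87). Its injured libraries held 2, 0 and 4 reads. CG17224 and ste24a were called with each library left out in turn and also without the 2 libraries together, where CG17224 was at −1.81.

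InR is the receptor of the insulin-like peptides. It was at 104, 413 and 93.9 CPM in the controls and at 81.9, 20.1 and 91.0 CPM at 1 hr. The other four libraries lay between 81.9 and 104 CPM, and replicate 2 held the outer value in each group. Its log2 fold change of −1.69 (SE 0.52) was −0.18 without the 2 libraries and not called. Zfh1, a zinc finger homeodomain repressor, and pygo, a cofactor of Wingless signalling, were lower too, and control replicate 2 was the highest library of both. Their log2 fold changes of −1.40 and −2.11 were −0.33 and −0.81 without the 2 libraries, and neither was then called.

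Frost (Fst), a gene induced by cold and dehydration, was at 23.0, 59.95 and 9.26 CPM in the controls and at 5.46, 2.52 and 6.07 CPM at 1 hr, from 2 to 3 reads in each injured library. Its log2 fold change of −2.70 was −1.38 without the 2 libraries and not called. Octbeta1R, a receptor for the neuromodulator octopamine, was at 161, 381 and 151 CPM in the controls and at 117, 106 and 119 CPM at 1 hr. Its log2 fold change sat at the limit of the call (SE 0.33) and was −0.39 without the 2 libraries, where it was not called. A further gene, frj, of the membrane-bound O-acyltransferase family, was chosen after its values were seen because it was among the 5 calls shared with the fit without the 2 libraries. Its controls were at 8.64, 28.2 and 7.93 CPM and its injured libraries at 41.0, 36.1 and 36.4 CPM (log2 fold change 1.43, and 2.21 without the 2).

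**Figure D3:**
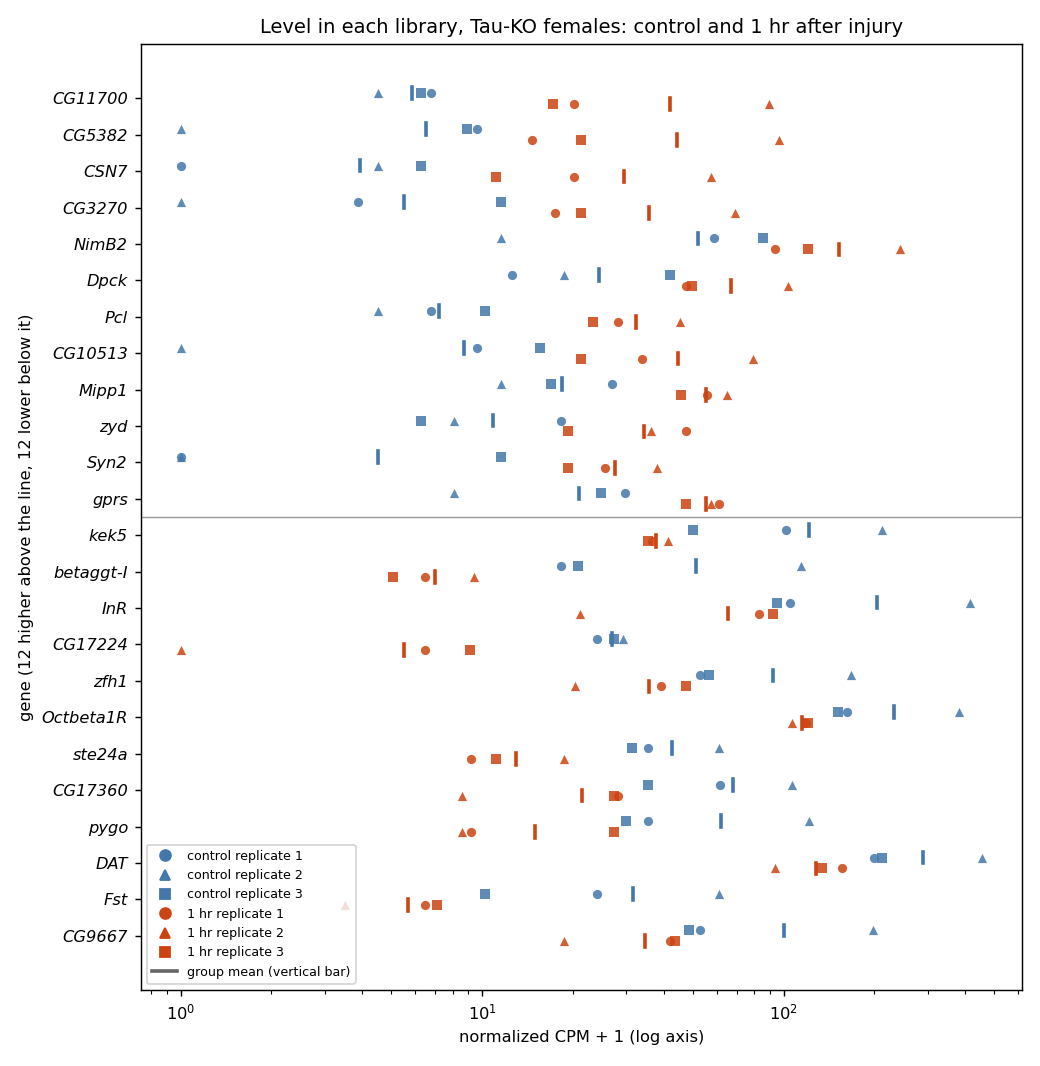
Normalized CPM + 1 on a log axis in each library for the 12 genes called higher (above the line) and the 12 called lower (below it) of smallest p with separate groups; blue is control, red is 1 hr, the symbol gives the replicate and a vertical bar the group mean. Replicate 2 (triangles) holds the outer value of most genes, as in InR with 413 CPM in the control and 20.1 CPM at 1 hr, while in Mipp1 the injured libraries lie at 44.5 to 63.7 CPM.

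Among 37 brain neuropeptide genes, 27 were tested, of which 3 were higher and 0 lower by the unadjusted rule, where 2.07% and 2.03% of all genes were, with a median log2 fold change of 0.04 beside 0.03 over all genes. All 3 are peptides of the insulin-producing cells. Dsk (drosulfakinin, a cholecystokinin-like satiety peptide) was at 11.52, 0 and 11.9 CPM in the controls and at 16.4, 67.9 and 28.3 CPM at 1 hr, with separate groups and a log2 fold change of 2.15 (SE 0.79). Ilp3, an insulin-like peptide, was at 11.52, 3.53 and 27.8 CPM and at 21.8, 101 and 22.2 CPM (log2 fold change 1.66, SE 0.70). Ilp5 was at 83.5, 17.6 and 72.7 CPM and at 68.3, 292 and 91.0 CPM (log2 fold change 1.37, SE 0.59). For Ilp3 and Ilp5 the groups overlapped and replicate 2 was the lowest control and the highest injured library. Ilp2, the most abundant of these peptides, was at 202, 236 and 210 CPM and at 180, 506 and 194 CPM and was not called (log2 fold change 0.46). Without the 2 libraries the log2 fold changes were 0.94 for Dsk, 0.10 for Ilp3 and 0.05 for Ilp5, and none of the 3 was called.

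Of 34 neuronal genes, 29 were tested, with 0 higher, 2 lower and a median of −0.17, and 12 of 29 were above 0. Over all genes, 2.07% were called higher and 2.03% lower, the median was 0.03 and 52.5% were above 0. DAT, which returns dopamine to the neuron after release, was at 199, 455 and 212 CPM in the controls and at 156, 92.2 and 133 CPM at 1 hr, with separate groups (log2 fold change −1.19, SE 0.42). Snap25, a SNARE protein of vesicle release, was at 248, 649 and 148 CPM and at 199, 124 and 170 CPM (−1.07, SE 0.37), with overlap. The sodium channel para (−0.45) and the acetylcholine enzyme ChAT (−0.71) passed the unadjusted p but not the limit on the fold change. Control replicate 2 was the highest library for all 4 genes. DAT and Snap25 were not called when either replicate 2 was left out, and without both their log2 fold changes were −0.51 and −0.082. The summed level of the neuronal list was 8417 to 10560 CPM in the controls and 7257 to 9572 CPM at 1 hr, and its median log2 fold change was −0.03 without the 2 libraries. Pdfr, the receptor of the clock neuropeptide PDF, was the 1 gene called among 12 of 18 clock genes tested, and fell from 426, 779 and 214 CPM to 311, 66.2 and 273 CPM (log2 fold change −1.14), with overlap. Without the 2 libraries its value was −0.12 and it was not called. With all libraries, 4.11% of all genes were called in either direction.

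Of 24 glial genes, 23 were tested, with 1 higher and 1 lower, where 2.07% and 2.03% of all genes were. Zyd was higher, as above, and GLaz, the glial relative of apolipoprotein D that protects against oxidative stress, was lower, at 101, 159 and 51.6 CPM in the controls and 65.5, 22.6 and 64.7 CPM at 1 hr (log2 fold change −1.04, SE 0.50). The median of the list was 0.07, and its summed level was 2784 to 3724 CPM in the controls and 2670 to 3365 CPM at 1 hr. The groups of GLaz overlapped, and its value was −0.19 and not called without the 2 libraries.

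Antimicrobial peptides were measured by 11 of 18 genes, all 11 with a log2 fold change above 0 (0.22 to 1.42, median 0.40) but 0 called in either direction. Beside this, 52.5% of all genes were above 0, with a median of 0.03, and 4.11% were called. Separate groups with higher values at 1 hr were found in 2 of the 11 and in 4.21% of all genes. Attacin genes had separate groups: AttB was at 37.4, 3.53 and 38.3 CPM in the controls and 51.9, 59.5 and 44.5 CPM at 1 hr, and AttC at 20.2, 3.53 and 13.2 CPM and 27.3, 28.5 and 34.4 CPM. The most abundant, Drs (drosomycin), was at 432, 183 and 527 CPM in the controls and at 396, 584 and 412 CPM at 1 hr. Control replicate 2 was the lowest library of all these peptides named, and the summed level of the list was 349 CPM there against 1037 and 1115 CPM in the other controls and 1001 to 1415 CPM at 1 hr. Without the 2 libraries the median of the list was −0.08.

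Immune sensing and signalling genes were tested in 33 of 53 cases, with 1 higher, 1 lower and a median of 0.25. Among all genes, 2.07% were higher and 2.03% lower, and the median was 0.03. IM4, a peptide secreted on Toll signalling (now named Dso1), was at 507, 138 and 525 CPM in the controls and 475, 1156 and 722 CPM at 1 hr (log2 fold change just over 1). PGRP-SD, a sensor of bacterial peptidoglycan, was at 37.4, 183 and 26.4 CPM and at 30.04, 17.6 and 38.4 CPM (log2 fold change −1.50). Both genes overlapped between groups, and without the 2 libraries neither was called, with IM4 at 0.22 and the sign of PGRP-SD turned, to 0.14. Of 20 haemocyte genes, 13 were tested and 0 were called.

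In each of 3 stress lists 1 gene was called higher, where 2.07% of all genes were. Of 24 heat shock genes, 15 were tested with 1 higher and a median of −0.02. Hsp23, a small heat shock chaperone, was at 8.64, 14.1 and 6.61 CPM in the controls and at 19.1, 44.4 and 16.2 CPM at 1 hr, with separate groups (log2 fold change 1.53, SE 0.71). Its call was lost without control replicate 1, control replicate 3 or 1 hr replicate 2, and without both replicates 2, where the value was 1.22. Of 27 oxidative stress genes, 17 were tested, and Cat, the catalase that breaks down hydrogen peroxide, was the 1 called, with 157 CPM in 1 hr replicate 2 and 0 to 25.9 CPM in the other five. Of 27 genes of JNK signalling, apoptosis and wounding, 14 were tested, and Jra, the fly Jun, was the 1 called, with 47.8 CPM in 1 hr replicate 2 and 3.53 to 13.7 CPM in the other five. Neither Cat nor Jra was called without 1 hr replicate 2, and without the 2 libraries their log2 fold changes of 2.48 and 2.09 were 0.077 and 0.53. Among 14 activity-regulated genes tested, 0 were called.

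Cytochrome P450 genes, the oxidases of detoxification and hormone metabolism, had the highest median of the lists (0.49) with all libraries. Of 76, 25 were tested, 19 of them above 0, and 3 were higher and 0 lower, beside 52.5% of all genes above 0 and 2.07% called higher. Cyp305a1 was at 25.9, 14.1 and 43.6 CPM in the controls and 62.8, 127 and 52.6 CPM at 1 hr, with separate groups (log2 fold change 1.47, SE 0.60). Cyp6g1, known for insecticide resistance, was at 20.2, 7.05 and 31.7 CPM and 32.8, 88.9 and 40.4 CPM (1.39, SE 0.59), with groups that were just separate. Cyp28d1 was at 66.2, 7.05 and 80.7 CPM and 139, 153 and 76.8 CPM, with overlap (1.18, SE 0.45). The median of the list was 0.26 to 0.74 with each library left out in turn and 0.15 without the 2 libraries, where that of the JNK, apoptosis and wounding list was 0.23. Cyp305a1, Cyp6g1 and Cyp28d1 were then at 0.68, 0.46 and 0.53, none of them called.

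Ribosomal protein genes lay above the median of all genes in both compartments with all libraries, but not without the 2. Of 94 cytosolic ones, 83 were tested, with 61 above 0, 4 higher, 0 lower and a median of 0.22, where 2.07% of all genes were called higher. The 4 were RpL21, RpL23A, RpL4 and RpS5a. RpL23A was at 101, 31.7 and 163 CPM in the controls and at 156, 752 and 166 CPM at 1 hr (log2 fold change 1.82, SE 0.66), and as in the other three 1 hr replicate 2 was the highest and control replicate 2 the lowest. Without the 2 libraries the median was −0.07 and none of the 4 was called, with RpL23A at 0.27 and RpS5a turned from 1.06 to −0.078. Of 73 mitochondrial ones, 53 were tested, 37 above 0, with a median of 0.43 that was −0.15 without the 2 libraries, and mRpL19 (log2 fold change 1.89) was higher with separate groups and mRpL14 (−1.13) lower with overlap. Without the 2 libraries these were 0.97 and −1.01, neither called. Of 68 genes of the respiratory chain and ATP synthase, whose cytochrome c oxidase is the target of the NIR light in the study, 62 were tested, 0 were called and the median was 0.08.

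Tau acts on microtubules, and 24 of 39 genes of tubulins, tau partners and axonal transport were tested, with 2 higher, 0 lower and a median of 0.25. The values over all genes were 2.07% higher, 2.03% lower and a median of 0.03. BetaTub97EF, a beta tubulin, was at 5.76, 0 and 2.64 CPM in the controls and at 8.19, 42.8 and 8.09 CPM at 1 hr, from 0 to 2 reads in a control. Cdk5alpha, the activator of the kinase Cdk5, which in mammals phosphorylates tau, was at 17.3, 3.53 and 5.29 CPM and at 13.7, 70.4 and 16.2 CPM. In both genes 1 hr replicate 2 was far above the other five libraries, and neither was called without it. Their log2 fold changes of 2.76 and 2.02 were 1.04 and 0.52 without the 2 libraries. The median of the list was 0.02 without the 2 libraries.

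Lists of other tissues that a brain dissection could carry had 0 or 1 call each, where 4.11% of all genes were called. Of 15 fat body and yolk genes tested, 1 was called, the lipid droplet protein Lsd-1 with 74.6 CPM in 1 hr replicate 2 and 0 to 14.4 CPM elsewhere (log2 fold change 2.44, and 0.34 and not called without the 2 libraries), and their summed level was 9138 to 10320 CPM in the controls and 9172 to 11100 CPM at 1 hr. Muscle (25 tested), gut (14), cuticle and trachea (9), antenna (9), photoreceptor (26) and pigment and retinal support genes (8) had 0 calls each. Muscle genes summed to 5763 to 7456 CPM in the controls and to 5716 to 6280 CPM at 1 hr. Gut genes summed to 1581 to 2028 CPM in the controls and to 1453 to 1589 CPM at 1 hr. Photoreceptor genes summed to 12430 to 14920 CPM in the controls and to 14370, 8120 and 13880 CPM at 1 hr, so that 1 hr replicate 2 held the least. In these brains a lower share of a cell type and less RNA per cell cannot be told apart. Proteasome (27 tested, median 0.28), glycolysis (15, 0.10), glutathione S-transferase (16, 0.19) and sodium pump genes (6, −0.26) also had 0 calls.

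**Figure D4:**
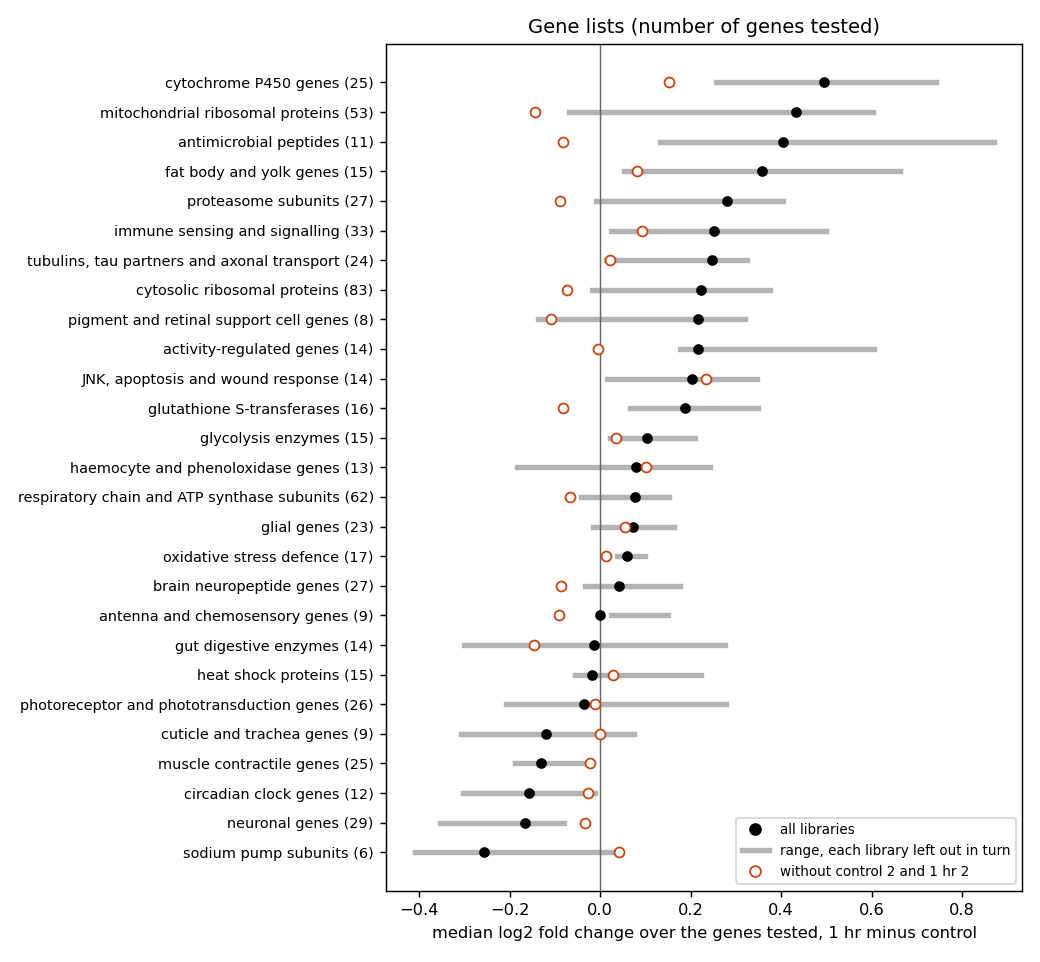
Median log2 fold change (x axis, 1 hr minus control) of each gene list in Tau-KO females, with the number of genes tested in parentheses; black points use all libraries, grey bars span the medians with each library left out in turn and open red circles leave out control replicate 2 and 1 hr replicate 2. Cytochrome P450 genes have the highest median with all libraries (0.49, and 0.15 without the 2), and the median of mitochondrial ribosomal proteins moves from 0.43 to −0.15 without the 2 libraries.

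Values at 2 and 4 hr are given beside those at 1 hr for the genes described, and all 3 times share the 3 control libraries. At 2 hr 202 genes (4.03%) and at 4 hr 111 genes (2.21%) were called. Of these libraries, 2 hr replicate 1 and 4 hr replicate 2 also stood apart (chi-square per degree of freedom 6.73 and 6.24), and their part in the values was not tested. Kek5 was at 33.1, 52.6 and 40.4 CPM at 2 hr and at 55.6, 61.9 and 50.6 CPM at 4 hr, and its log2 fold changes were −1.66, −1.48 and −1.06 from 1 to 4 hr. Ste24a was at 55.1, 44.0 and 25.5 CPM at 2 hr, within the control range of 30.4 to 59.95 CPM but for 1 library, and at 28.9, 20.6 and 25.3 CPM at 4 hr. CG17224 was at 33.1, 33.0 and 19.1 CPM at 2 hr and at 13.3, 1.38 and 15.2 CPM at 4 hr. Zyd was at 23.4, 26.9 and 14.9 CPM at 2 hr and at 13.8 to 21.9 CPM at 4 hr, with 2 libraries at each of these times within the range of 1 hr and 1 within that of the controls. Dsk was at 44.1, 47.7 and 34.0 CPM at 2 hr, above all controls, and at 16.9 to 37.1 CPM at 4 hr. InR was at 84.1 to 97.8 CPM at 2 hr and 75.6 to 116 CPM at 4 hr, near the 2 lower controls. Whether any of these times differ from each other was not tested.

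**Figure D5:**
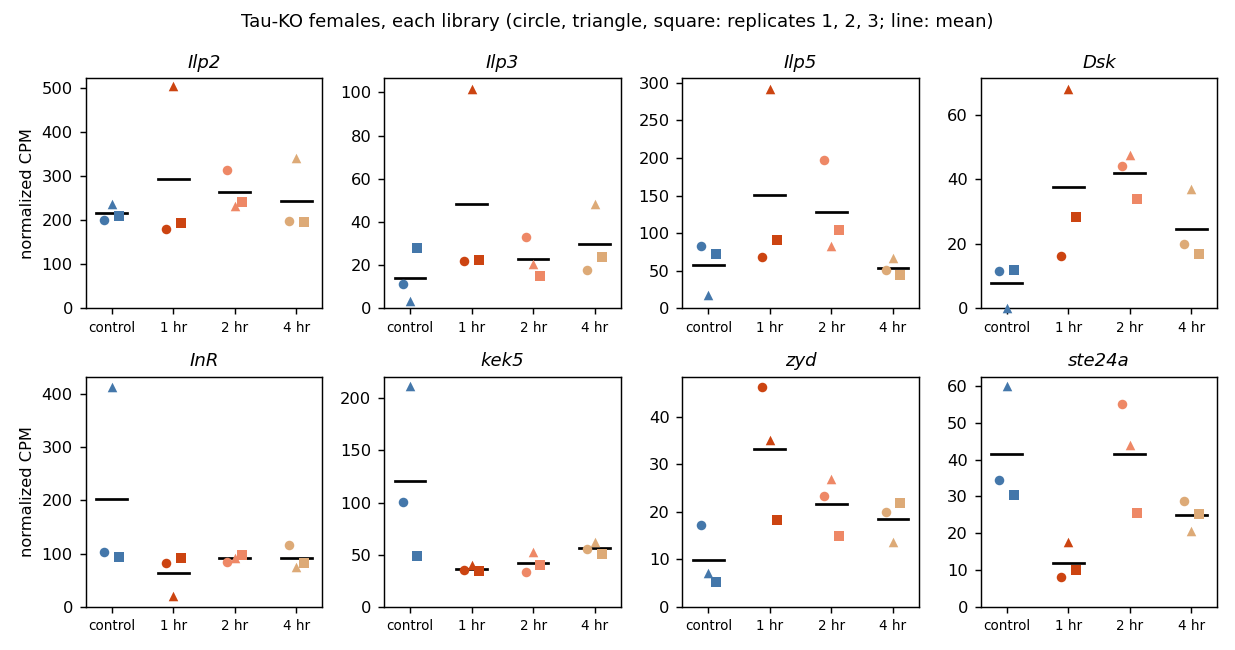
Normalized CPM of 8 genes in each Tau-KO female library (circle, triangle and square for replicates 1, 2 and 3) in the control and at 1, 2 and 4 hr, with the group mean as a line. Replicate 2 holds the highest value at 1 hr of Ilp2, Ilp3, Ilp5 and Dsk and the highest control value of InR, while ste24a is low in all 3 libraries at 1 hr (8.19 to 17.6 CPM) and zyd is above all controls there.

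The change at 1 hr was compared with that of Tau-KO males by testing the difference of both changes in the same fit. No gene passed an adjusted p under 0.05, with the smallest at 0.515, and 327 of 5015 genes (6.52%) differed by the unadjusted rule, 144 (2.87%) with a higher change in females and 183 (3.65%) with a lower one. With DESeq2 there were 336 by the unadjusted rule and 0 by the adjusted one, and without the fold limit edgeR gave 349 (6.96%). The male control was thin: its replicate 1 held 39517 counts, and its replicates 2 and 3 and the male 1 hr replicate 2 stood apart from all other libraries (chi-square per degree of freedom 6.66 to 7.23). Their part in the values was not tested. RagA-B is a GTPase that signals amino acids to TORC1. It was at 0, 27.3 and 28.2 CPM in male controls and at 0 in all male 1 hr libraries. In females it was at 0, 0 and 2.64 CPM in the controls and at 2.73, 10.1 and 6.07 CPM at 1 hr. The 2.64 CPM stands for 2 reads in control replicate 3, as 5.46 CPM does in 1 hr replicate 1. The female groups were thus not separate in reads. CR45417 was at 0 to 3.89 CPM in male controls and 20.3 to 49.99 CPM in injured males, with 46.1 to 102 CPM in female controls and 35.2 to 66.7 CPM in injured females. Tyf, which promotes translation of the clock protein PER, was higher in injured males (53.4 to 129 CPM) than in male controls (14.9 to 42.0 CPM), and in females it was at 96.5 to 247 CPM in the controls and 45.3 to 86.9 CPM at 1 hr.

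Of the genes called in females, CG11700 had the smallest p for the difference between the sexes. It was at 5.76, 3.53 and 5.29 CPM in female controls and 19.1, 88.0 and 16.2 CPM at 1 hr, and at 42.0, 23.6 and 43.8 CPM in male controls and 14.7, 8.55 and 5.29 CPM in injured males. The male groups were separate, with lower values at 1 hr, while separate groups in females were part of the rule that chose the gene. Female controls held 2, 1 and 4 reads. The 42.0 CPM of male control replicate 1 came from a library of 39517 counts. For CG11700 the difference of the log2 fold changes was 4.96 (SE 1.16, adjusted p = 0.515), and 3.55 without the 2 female libraries. Its change in females alone was 3.04, and 1.65 and not called without them. The role of CG11700 is not given in the sources used here. All male libraries were kept in these fits, among them the thin control replicate 1 and the controls that stood apart. Ste24a had a difference of −2.75 (SE 0.82) that was −2.85 without the 2 female libraries, with 0, 6.21 and 24.3 CPM in male controls and 29.4, 39.5 and 21.2 CPM in injured males. Kek5 (difference −1.21, SE 0.62) and Mipp1 (0.70, SE 0.85) did not pass the unadjusted rule, which does not show that their changes were alike.

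Set against w1118 females, 144 of 5821 genes (2.47%) differed in their change by the unadjusted rule, 87 (1.49%) with a higher and 57 (0.979%) with a lower change in Tau-KO, and 0 passed the adjusted rule (smallest adjusted p 0.999). DESeq2 gave 169 and 0, and edgeR without the fold limit gave 156 (2.68%). Kek5 was at 9.29, 40.6 and 52.0 CPM in w1118 controls and at 64.1, 25.5 and 52.0 CPM in injured w1118 females, so those groups overlapped. Separate groups in Tau-KO were part of the rule that chose kek5, so the overlap in w1118 does not compare the strains. The difference of kek5 was −2.14 (SE 0.69, adjusted p = 0.999), and −1.51 without the 2 libraries, where it no longer passed. NKAIN, a partner of the sodium pump, was at 79.3, 79.1 and 75.2 CPM in injured w1118 females and 20.5, 35.9 and 30.2 CPM in their controls, whereas in Tau-KO females it was at 53.7 to 67.3 CPM in the controls and 45.8 to 64.9 CPM at 1 hr. That difference was −1.54 (SE 0.55), and −1.75 without the 2 libraries. Ste24a differed by −2.07 (SE 0.89), and by −2.14 without them. The digestive proteases Jon65Aiv and yip7 were among the 5 genes of smallest p with a higher change in Tau-KO. Control replicate 1 of w1118 held 2392 and 1026 CPM of them, against 100.6 to 120 and 57.0 to 65.6 CPM in the other w1118 controls. That library and w1118 1 hr replicate 2 also stood apart (chi-square per degree of freedom 12.7 and 6.69), and the former held the lowest control value of kek5 and NKAIN as well. When these 2 w1118 libraries were left out, a choice made after the data were seen, 84 genes differed by the unadjusted rule, 42 of them among the 144. Jon65Aiv (difference −0.032) and yip7 (1.10) no longer passed, nor did ste24a (−1.59), while kek5 (−2.01), NKAIN (−1.34) and htk (5.13) did. Htk, a chromatin protein with an ARID domain, was at 16.8 to 37.2 CPM in w1118 controls and at 0 to 17.9 CPM in injured w1118 females, and at 0 to 5.65 CPM and 13.9 to 26.6 CPM in Tau-KO females (difference 3.91, SE 1.37, and 3.52 without the 2 Tau-KO libraries).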

How the data were processed

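RNA of single fly brains was sequenced from the 3′ end in 48 libraries. The authors demultiplexed the reads with CASAVA 1.8.2, ran STAR 2.4 against dm3 and deposited whole-number counts of reads per gene from HTSeq, without normalization. Their tables of comparisons (edgeR 3.22.3: fold change, log CPM, likelihood ratio, p-value and FDR) were not used. Of 17000 rows, 5 name no gene (25.6 to 45.8% of counts in the 6 libraries) and were left out, which leaves 16995 genes.

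The 24 Tau-KO libraries were fitted with 1 mean per group in edgeR 4.0.16 (R 4.3.3) after filterByExpr and TMM scaling, and p-values of glmQLFTest were adjusted over all genes tested (Benjamini-Hochberg). The difference from w1118 used all 48 libraries. Normalized CPM are counts scaled to the TMM-adjusted library size, and an SD is that of 3 libraries. Alternatives were DESeq2 1.42.0 and its size factors, a fit of all genes without a filter, a block for the replicate number, single libraries left out, the 6 libraries alone and all 48. Leaving out the 2 libraries that differed from their nearest of all 48 by over 4 (chi-square per degree of freedom, genes with at least 20 counts), leaving out 2 w1118 female libraries by the same limit, thinning to 250000 counts and leaving out MRE16 were added after the data were seen.

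Named genes are the 12 of smallest p in each direction among those called whose groups do not overlap, every list member called, label checks, and the 5 of smallest p in each direction of a difference. The members and the gene lists were chosen with earlier results of these data known. Positions are from BDGP6 and were not used for counting. At the depth of 292534 to 1528927 counts, single reads already move the level of weakly expressed genes.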

Additional observations from a re-analysis of the deposited data

How the results depend on the processing

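Without the filter on low counts, 422 genes were called in Tau-KO females at 1 hr, 9 of them at the adjusted rule, and the differences from Tau-KO males and from w1118 females held 810 genes (13 adjusted) and 367 genes (11 adjusted). Among the 9 were MRE16, with 1464 reads in control replicate 2 and 330718 in 1 hr replicate 2, and RpL23A, with 9 and 897. Use1, also among them, had 103 reads in control replicate 2 and 6 to 17 in the others. The unfiltered fit was not repeated without these 2 libraries. The fit of the 6 libraries alone, with 3718 genes tested, called 48. Leaving out each library of the comparison in turn gave 38 to 491 calls, and leaving out each replicate number gave 190 to 543 for the difference from males and 63 to 336 for that from w1118. Without both libraries that stood apart the counts were 15, 101 and 32, without the 2 w1118 female libraries that stood apart the last was 84, and the log2 fold changes of PGRP-SD and RpS5a changed sign, to 0.14 and −0.078. The cause of these shifts was not tested beyond the libraries left out. DESeq2 size factors (218), the DESeq2 test (236), all 48 libraries (199), thinning to 250000 counts (151) and leaving out MRE16 (211) kept the count within 1.5 times of 206, and none of these gave a gene at the adjusted rule.

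Like replicate numbers did not stand out by 1 measure. The deviations from the group means over 2000 genes correlated at 0.06, −0.33 and −0.26 for replicates 1, 2 and 3. For unlike numbers the correlations were −0.55 to 0.50. With 3 libraries per group the deviations depend on each other, so this measure cannot decide whether libraries were paired. With the replicate block the counts were 168, 321 and 143, with 0 at the adjusted rule. Both libraries of the comparison that stood apart were replicate 2. Over the series, libraries above the same limit carried number 2 more often than 1 or 3. In Tau-KO females 2 hr replicate 1 and 4 hr replicate 2 were also above it. In Tau-KO males control replicates 2 and 3, 1 hr replicate 2 and 4 hr replicate 2 were (4.81 to 7.23 over both sexes). The fit without the 2 libraries kept all of these, and they enter its shared spread. Whether a replicate number stands for a batch was not tested. Of 47 named genes, 17 kept the call when control replicate 2 was left out, 13 when 1 hr replicate 2 was and 4 when both were, and 39 kept it with the block. Genes of few reads, such as CSN7 with 0 to 4 in a control, have folds that a few reads can move, and 1 brain per library gives no measure of technical error.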
